A study of Homo sapiens with 12 samples.

Results

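The genes described here are the enzymes and transporters of glycolysis and the genes of the hypoxia response. The 35 members were taken by symbol from a table of 23346 genes, and all 35 were found there. Glycolysis splits glucose into pyruvate in the cytosol, and lactate dehydrogenase turns pyruvate into lactate, which monocarboxylate transporters carry out of the cell. The hypoxia-inducible factors (HIF) are transcription factors made of an oxygen-labile alpha subunit (HIF1A or EPAS1) and a stable partner. In the presence of oxygen, prolyl hydroxylases mark the alpha subunits for destruction, and when oxygen is low the factors turn on genes of glucose uptake, glycolysis, pH control and vessel growth. Pancreatic adenocarcinoma is known as a poorly perfused tumour, and both programmes are widely studied in it.

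RNA-seq was carried out on SW1990 and CFPAC-1, established human pancreatic adenocarcinoma cell lines, after flow sorting with GCTM-5, a monoclonal antibody to an epitope on a large glycoconjugate complex of ductal and progenitor cells. Within each line, 3 samples of GCTM-5 positive and 3 of GCTM-5 negative cells were sequenced, 12 samples in 4 groups in all. The samples came from triplicate sorts of the same line, so that p-values measure the spread between sorts, and a difference between SW1990 and CFPAC-1 is one between these 2 cultures. No drug or other treatment is named, all cells were grown as monolayers, and the oxygen level of the cultures is not given in the sources used here.

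Values are RPKM, reads divided by gene length and library size, and the mean is given with the standard deviation (SD, n = 3). Library totals, recovered from the steps between values, ran from 9969697 reads in CFPAC-1 positive replicate 3 to 26159330 in CFPAC-1 positive replicate 1. Fold changes are on the scale of log2(RPKM + 0.1), given with the standard error (SE) of a limma fit of all 12 samples. Calls rest on an adjusted p under 0.05 (Benjamini-Hochberg, over the 16236 genes with a mean of at least 0.1 RPKM). All 35 members passed that filter, but *LDHB* and *CA9* had a mean under 0.1 RPKM over the SW1990 samples and passed through CFPAC-1. As a check of the labelled cell type, all 8 duct epithelial markers examined, among them *EPCAM*, *KRT19* and *SOX9*, were detected in each group. The leukocyte marker *PTPRC* was at or near 0 in each group. Other listed leukocyte markers were not, since *CD68* ran from 21.7 to 138 RPKM in the group means and *CD14* from 0.287 to 9.23. The leukocyte list therefore does not settle the check.

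The letters that HIF binds, ACGTG and GCGTG, were searched on both strands from 250 bases before to 50 bases after the start of each gene, with RefSeq promoters on GRCh38.p14. Of the 35 members, 30 had an entry, and 22 of these (73.3%) held at least 1 match, against 48.4% of all 35116 promoters and 58.8% of the 15441 promoters of genes tested. The members' windows were also richer in CpG, with a median of 29.5 CpG against 14 in all promoters and 24 in those of genes tested. A single start was taken for each member. The windows of *HK1*, *PGAM1* and *PDK1*, all without a match, held only 1, 5 and 6 CpG, while that of *CA9* held 7 and had a match. Whether these are the starts used in the 2 lines was not tested. *SLC2A3*, *SLC16A1*, *VEGFA*, *NDRG1* and *BNIP3L* had no entry. The 250 bases before the start are shown for the lactate dehydrogenase genes, for *PGK1*, and for the hypoxia targets *BNIP3* and *CA9*, since *LDHB*, *BNIP3* and *CA9* were the members furthest below CFPAC-1 in SW1990, *LDHA* encodes the other subunit beside *LDHB*, and *PGK1* rose in both lines on sorting. Capitals mark the matches, CACGT and CACGC being the same motifs on the other strand, and CACGTG holds 1 match on each strand.
LDHA: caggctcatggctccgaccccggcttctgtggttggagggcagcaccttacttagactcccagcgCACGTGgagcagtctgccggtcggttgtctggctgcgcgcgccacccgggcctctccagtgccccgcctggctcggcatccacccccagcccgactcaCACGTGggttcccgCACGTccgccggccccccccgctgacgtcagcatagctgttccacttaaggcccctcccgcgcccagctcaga
LDHB: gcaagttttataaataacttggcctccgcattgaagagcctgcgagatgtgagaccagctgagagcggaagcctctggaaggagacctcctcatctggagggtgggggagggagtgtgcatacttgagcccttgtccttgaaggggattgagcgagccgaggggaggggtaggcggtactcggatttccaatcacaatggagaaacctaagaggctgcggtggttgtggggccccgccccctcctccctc
PGK1: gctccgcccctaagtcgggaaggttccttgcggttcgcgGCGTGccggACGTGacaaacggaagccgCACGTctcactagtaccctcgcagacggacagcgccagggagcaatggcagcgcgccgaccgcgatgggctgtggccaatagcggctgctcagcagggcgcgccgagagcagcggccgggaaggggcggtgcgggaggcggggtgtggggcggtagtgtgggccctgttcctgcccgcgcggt
BNIP3: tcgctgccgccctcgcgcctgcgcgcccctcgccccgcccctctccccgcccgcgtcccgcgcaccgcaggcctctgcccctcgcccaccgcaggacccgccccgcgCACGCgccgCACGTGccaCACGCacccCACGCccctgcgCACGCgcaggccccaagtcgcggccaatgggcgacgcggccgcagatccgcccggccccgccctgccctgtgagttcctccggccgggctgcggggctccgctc
CA9: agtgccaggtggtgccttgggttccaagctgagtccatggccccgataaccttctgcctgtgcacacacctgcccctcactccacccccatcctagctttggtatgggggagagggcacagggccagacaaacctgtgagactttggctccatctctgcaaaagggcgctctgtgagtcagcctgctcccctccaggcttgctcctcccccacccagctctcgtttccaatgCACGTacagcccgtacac
The stretches lie at chr11:18394313-18394562 (*LDHA*, plus strand), chr12:21657843-21658092 (*LDHB*, minus strand), chrX:78103998-78104247 (*PGK1*, plus strand), chr10:131981924-131982173 (*BNIP3*, minus strand) and chr9:35673678-35673927 (*CA9*, plus strand). The *BNIP3* stretch held 6 matches and the *LDHA* stretch 5, which counts each CACGTG as a pair. *LDHB* held none before its start and 1 match 28 bases after it. A match says only that the letters are there.

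In CFPAC-1 the glycolytic enzymes rose together in GCTM-5 positive cells. Of the 16 enzymes from hexokinase to lactate dehydrogenase, 13 rose and none fell, with a median log2 fold change of 0.49. The enzymes also varied together within some groups, so that these are not 13 independent changes. CFPAC-1 negative replicate 1 was the highest of its group in 14 of 16, and SW1990 negative replicate 3 the lowest in 12 of 15. The positive CFPAC-1 samples were more mixed, being the highest in 7, 4 and 5 of 16. Over all 35 members, 17 rose (48.6%) and 1 fell (2.86%), where the background of all genes tested was 22.3% higher and 14.2% lower. Their median was 0.42 against 0.05 for all genes tested. In SW1990, 5 members rose (14.3%) and 5 fell (14.3%), beside 11.3% of all genes higher and 16.9% lower, and their median was 0.00. The change itself differed between the lines for 16 members (45.7%, background 26.9%), 15 of them with the lower value in SW1990. That count holds *LDHB*, which had no reads in SW1990, and without it 15 of 34 members were called (44.1%), 14 of them lower. The values are scaled by library size alone. As deposited, 3622 genes were called higher and 2307 lower on sorting of CFPAC-1, and with each sample centred on its median over all genes these counts were 2795 and 3056, with 14 members higher and 1 lower. The 3 members no longer called higher in CFPAC-1 were *HK1*, *PFKP* and *PGK1* (adjusted p = 0.053, 0.089 and 0.090). For the difference between the lines, 1487 genes higher and 2887 lower became 1987 and 1988, the median over all genes moved from -0.15 to 0.00, and 1 member was higher and 9 lower. The 6 members no longer called were *EGLN1*, *ENO1*, *PFKFB3*, *PFKM*, *PGAM1* and *SLC16A1* (adjusted p from 0.055 to 0.1). In bulk RNA, a smaller share of cells that express a gene and less RNA per cell cannot be told apart.

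**Figure D1:**
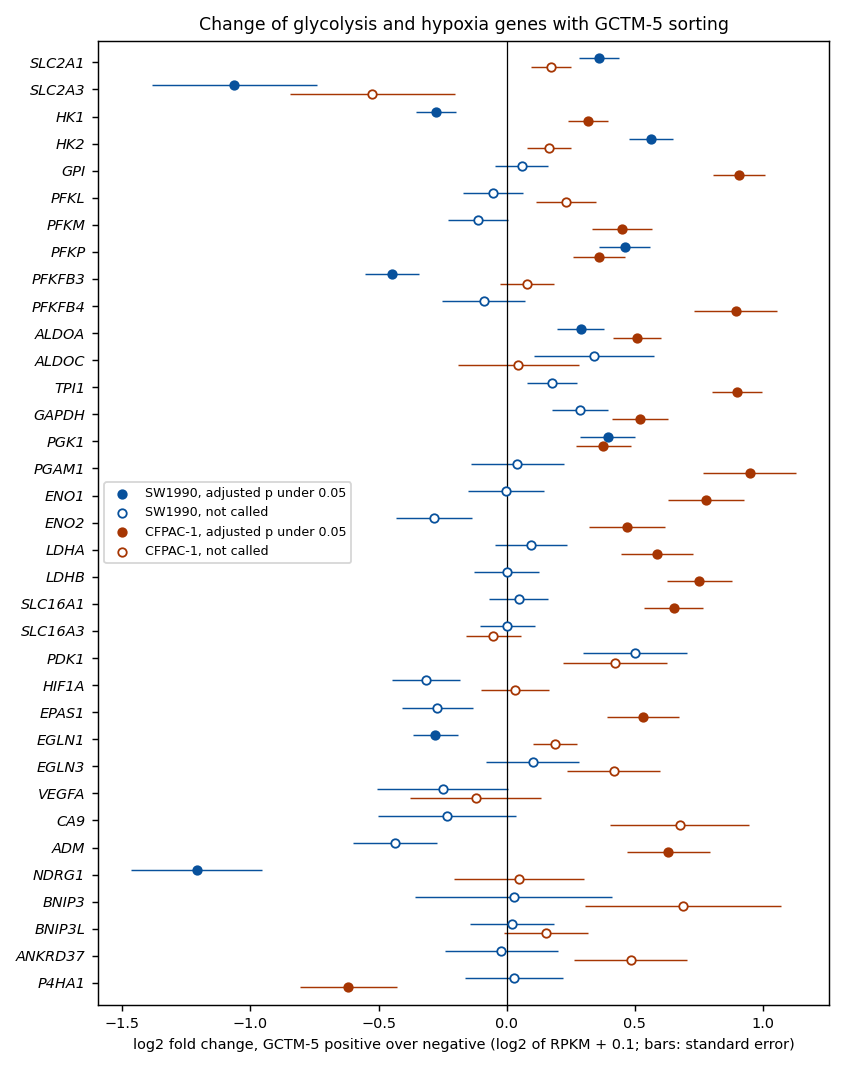
Log2 fold change of each of the 35 members between GCTM-5 positive and negative cells (x axis, log2 of RPKM + 0.1, bars are the SE of the limma fit) in SW1990 (blue) and CFPAC-1 (orange-brown), with filled points for an adjusted p under 0.05. The 17 filled orange-brown points to the right of 0 run from *HK1* (0.32) to *PGAM1* (0.95), whereas the 10 filled blue points lie on both sides of 0, 5 on each.

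Glucose enters these cells through facilitative transporters, of which *SLC2A1* encodes the widely expressed GLUT1 and *SLC2A3* the high-affinity GLUT3. *SLC2A1* averaged 77.8 ± 4.54 RPKM in negative SW1990 cells and 99.9 ± 4.41 in positive ones and rose there by 0.36 ± 0.08 log2 units (SE, adjusted p = 0.0039). In CFPAC-1 it stood higher, at 197 ± 9.03 and 222 ± 8.88 RPKM, with a fold change of 0.17 ± 0.08 log2 units (SE, adjusted p = 0.1). The transporters moved apart in SW1990.

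*SLC2A3* read 20.3, 22.4 and 26.9 RPKM in the 3 negative SW1990 samples and 8.0, 12.7 and 12.9 in the positive ones. No positive sample reached a negative one, and the log2 fold change was -1.06 ± 0.32 (SE, adjusted p = 0.027). This fall was no longer called without SW1990 negative replicate 2, negative replicate 3 or positive replicate 1 (adjusted p = 0.061, 0.1 and 0.11) or with a pseudocount of 0.01. CFPAC-1 had little of this transporter, with 0.548, 0.79 and 0.764 RPKM in negative and 0.621, 0.663 and 0.204 in positive cells, which overlapped. The SW1990 mean was 33.1 times that of CFPAC-1 in negative cells and 22.6 times in positive cells. *SLC2A3* thus made up 22.9% ± 2.83 of the summed RPKM of both transporters in negative SW1990 cells, 10.0% ± 2.15 in positive ones, and 0.352% ± 0.0524 and 0.220% ± 0.108 in CFPAC-1.

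Hexokinase traps glucose as glucose 6-phosphate, and its isoenzymes moved in opposite directions in SW1990. *HK2*, the inducible form, read 22, 19.6 and 18 RPKM in negative SW1990 cells and 30.3, 28.5 and 29.1 in positive ones and rose by 0.56 ± 0.09 log2 units (SE, adjusted p = 0.0004). *HK1*, the housekeeping form, read 21.5, 20.9 and 19.4 RPKM in negative cells and 17.6, 16.3 and 17 in positive ones and fell, with -0.28 ± 0.08 log2 units (SE, adjusted p = 0.019). Neither gene's SW1990 groups overlapped. The share of *HK2* in both hexokinases went from 49.0% ± 1.34 to 63.3% ± 0.256.

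In CFPAC-1 it was *HK1* that rose, from 14.3, 13.4 and 13.9 RPKM to 18.1, 16.5 and 17.2, by 0.32 ± 0.08 log2 units (SE, adjusted p = 0.0082). *HK2* was at 33.4 ± 1.53 RPKM in negative CFPAC-1 cells and 37.4 ± 1.97 in positive ones (0.16 log2 units, adjusted p = 0.16), with shares of 70.7% ± 0.408 and 68.4% ± 1.93. The change of *HK1* differed between the lines by -0.59 ± 0.11 log2 units (SE, adjusted p = 0.0021) and that of *HK2* by 0.40 ± 0.12 log2 units (SE, adjusted p = 0.031). With each sample centred on its median over all genes, *HK1* kept its direction in each line but was not called (adjusted p = 0.052 in SW1990 and 0.053 in CFPAC-1). The fall of *HK1* was also lost without SW1990 negative replicate 1 or 2 or positive replicate 2 or 3 (adjusted p from 0.054 to 0.067), and the difference of *HK2* without any 1 of 7 samples (from 0.058 to 0.074).

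Phosphoglucose isomerase, encoded by *GPI*, makes fructose 6-phosphate and showed one of the clearest changes. Negative CFPAC-1 samples read 17.8, 15.4 and 16.1 RPKM and positive ones 32.1, 26.9 and 33.9. Every positive sample lay above every negative one, with a log2 fold change of 0.91 ± 0.10 (SE, adjusted p = 8.4e-05). In SW1990 the groups overlapped, at 53.5, 54.4 and 46.6 RPKM in negative and 55.1, 51.3 and 54.2 in positive cells (0.06 log2 units, adjusted p = 0.73). The difference between the lines was -0.85 ± 0.14 log2 units (SE, adjusted p = 0.0012), and the CFPAC-1 level stayed below that of SW1990 in either fraction.

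Phosphofructokinase commits the sugar to glycolysis, and its platelet-type gene *PFKP* rose in both lines, by 0.46 ± 0.10 log2 units (SE, adjusted p = 0.0047) in SW1990 and 0.36 ± 0.10 log2 units (SE, adjusted p = 0.016) in CFPAC-1. The muscle-type gene *PFKM* rose in CFPAC-1 by 0.45 ± 0.12 log2 units (SE, adjusted p = 0.011), from 4.4 ± 0.294 to 6.06 ± 0.575 RPKM. Its change in SW1990 was -0.11 log2 units, adjusted p = 0.53, and the difference between the lines was -0.56 log2 units, adjusted p = 0.025. That difference was lost without any 1 of 6 samples (adjusted p from 0.051 to 0.067), and the rise of *PFKP* in CFPAC-1 without negative replicate 2 (0.063), with centring on the median (0.089) and with quantile normalization (0.070). The liver-type gene *PFKL* was not called in either line. *PFKP* made up 46.8% ± 3.52 of the summed RPKM of the 3 genes in negative SW1990 cells and 56.0% ± 2.66 in positive ones, with 64.0% ± 1.66 and 65.0% ± 0.498 in CFPAC-1.

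Fructose 2,6-bisphosphate, the strongest activator of phosphofructokinase, is made and broken down by the PFKFB enzymes. *PFKFB4* read 3.65, 2.9 and 3.41 RPKM in negative CFPAC-1 cells and 7.77, 5.57 and 5.58 in positive ones, with no overlap and a log2 fold change of 0.89 ± 0.16 (SE, adjusted p = 0.0015). Its SW1990 samples overlapped, at 7.88, 5.69 and 7.23 RPKM in negative and 6.65, 6.48 and 6.23 in positive cells. The difference between the lines was -0.98 ± 0.23 log2 units (SE, adjusted p = 0.008), and *PFKFB4* shares exon sequence with *UCN2* on the same strand. *PFKFB3* had the opposite pattern of calls, falling in SW1990 from 22.9 ± 1.53 to 16.8 ± 1.56 RPKM (-0.45 log2 units, adjusted p = 0.0068) and standing at 64.2 ± 7.57 and 67.6 ± 4.86 RPKM in CFPAC-1 (0.08 log2 units, adjusted p = 0.59). Its difference between the lines, -0.53 log2 units, adjusted p = 0.021, was lost without any 1 of 6 samples (adjusted p from 0.050 to 0.058).

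Aldolase cuts the sugar into trioses that triose phosphate isomerase interconverts. *ALDOA* rose in both lines, with means of 166 ± 18.9 and 201 ± 4.9 RPKM in SW1990 (0.29 log2 units, adjusted p = 0.035) and 131 ± 10.3 and 186 ± 2.66 in CFPAC-1 (0.51 log2 units, adjusted p = 0.0015). The SW1990 call was among the least stable, since it was lost in 9 alternatives, 6 of them with 1 sample left out. *ALDOC* was not called in either line and stayed between 10.7% and 15.4% of both aldolases in the group means.

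*TPI1*, the isomerase, read 108, 106 and 97.4 RPKM in negative CFPAC-1 cells and 203, 195 and 182 in positive ones. The groups were far apart, and the log2 fold change was 0.90 ± 0.10 (SE, adjusted p = 7.1e-05). Among SW1990 samples it read 282, 295 and 239 RPKM in negative and 329, 292 and 298 in positive cells, which overlapped (0.18 log2 units, adjusted p = 0.21). The lines differed in this change by -0.72 ± 0.14 log2 units (SE, adjusted p = 0.0025).

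**Figure D2:**
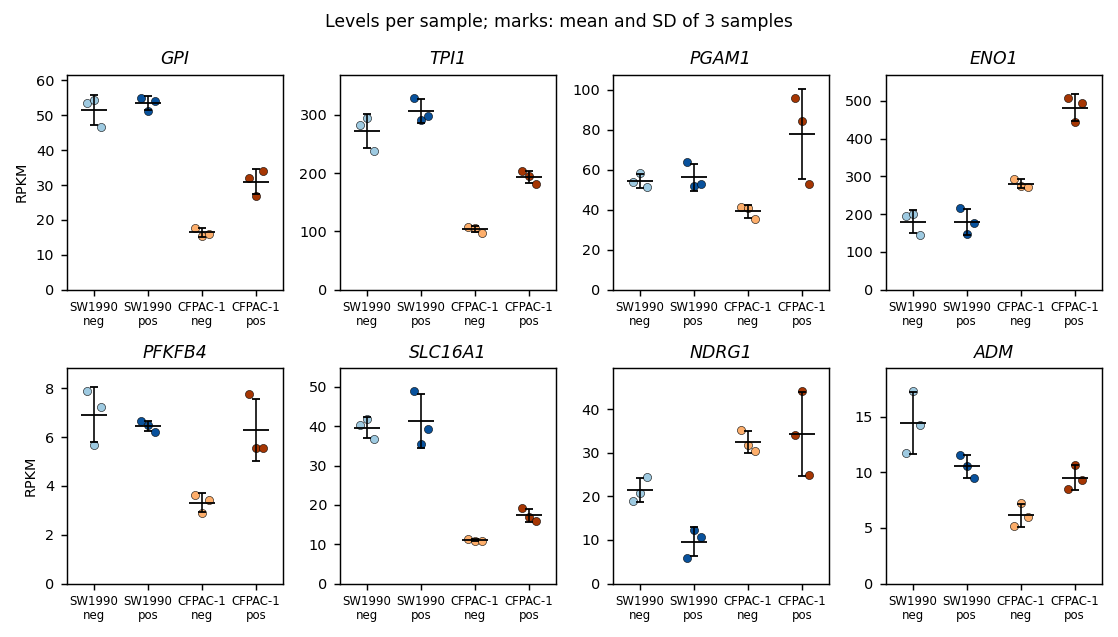
RPKM in each sample (y axis, linear, from 0) of 8 members whose change with GCTM-5 sorting differed between the lines, for negative and positive cells of SW1990 (blue) and CFPAC-1 (orange), pale for negative and dark for positive cells, with the mean and SD of 3 samples. *GPI*, *TPI1*, *PGAM1*, *ENO1*, *PFKFB4* and *SLC16A1* had separate CFPAC-1 groups and overlapping SW1990 groups, whereas *NDRG1* was lower in every positive SW1990 sample (at most 12.4 RPKM) than in any negative one (at least 19.0).

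The 5 genes of lower glycolysis, from glyceraldehyde 3-phosphate dehydrogenase to enolase, all rose in CFPAC-1, and 1 of them, *PGK1*, rose in SW1990. *GAPDH*, the most abundant member per length, read 980.3, 917 and 886 RPKM in negative CFPAC-1 cells and 1325, 1303 and 1366 in positive ones and rose by 0.52 ± 0.11 log2 units (SE, adjusted p = 0.0034). In SW1990 it read 1597, 1707 and 1449.6 RPKM in negative cells and 2019, 1841 and 1926 in positive ones, and although no positive sample fell among the negative ones, the fold change of 0.29 ± 0.11 log2 units (SE, adjusted p = 0.073) missed the threshold. The annotation names 65 pseudogenes after *GAPDH*, none of them in the table under such a name, and how reads that match several places were counted is not given in the sources used here. Exons of *PFKM*, *TPI1*, *ENO1*, *SLC16A3*, *BNIP3L* and *ANKRD37* overlap a gene on the opposite strand and those of *PGK1* one on the same strand. Whether the counting used strand is not given in the sources used here, so that these values could hold reads of a neighbour.

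*PGK1*, phosphoglycerate kinase, regains the first ATP and is located on the X chromosome (GRCh37, 77166236 to 77384792, plus strand, the span of all its annotated transcripts). It rose in both lines, with means of 71.3 ± 7.95 and 93.5 ± 7.46 RPKM in SW1990 (0.39 log2 units, adjusted p = 0.016) and 163 ± 8.01 and 213 ± 22.7 in CFPAC-1 (0.38 log2 units, adjusted p = 0.017). The difference between the lines was 0.02 ± 0.15 log2 units (SE, adjusted p = 0.95). The SW1990 call was lost without negative replicate 3 or positive replicate 1 (adjusted p = 0.073 and 0.065), and the CFPAC-1 call without negative replicate 2, negative replicate 3 or positive replicate 1 (from 0.053 to 0.068) and with centring on the median (0.090).

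*PGAM1*, phosphoglycerate mutase, had the largest rise of any member on sorting, 0.95 ± 0.18 log2 units (SE, adjusted p = 0.0019) in CFPAC-1. Its negative samples there read 41.3, 40.9 and 35.1 RPKM and its positive samples 96, 84.5 and 52.8. Replicate 3 lay well below the other positive samples and still above all negative ones, and without it the log2 fold change was 1.21. In SW1990 the values 53.6, 58.2 and 51.2 in negative and 63.7, 51.9 and 52.7 RPKM in positive cells overlapped, and the lines differed by -0.91 ± 0.26 log2 units (SE, adjusted p = 0.021). That difference was lost without SW1990 positive replicate 2 or 3 or CFPAC-1 negative replicate 3 (adjusted p from 0.051 to 0.056), and 13 pseudogenes are named after *PGAM1*.

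Enolase makes phosphoenolpyruvate, and both of its genes rose in CFPAC-1. *ENO1*, the ubiquitous form, read 294, 275 and 273 RPKM in negative and 509, 443 and 495 in positive cells (0.78 log2 units, adjusted p = 0.002), with a wide gap between the groups. In SW1990 it read 195, 200.3 and 145 RPKM in negative cells and 216, 148 and 176 in positive ones, and the means were equal to the digits shown in the fold change (0.00 log2 units, adjusted p = 1). *ENO2*, the form known from neurons, read 24.3, 20 and 18.4 RPKM in negative CFPAC-1 cells and 34, 27.3 and 25.8 in positive ones (0.47 log2 units, adjusted p = 0.027).

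The rise of *ENO2* was small beside its spread and was lost without CFPAC-1 negative replicate 2, negative replicate 3 or positive replicate 1 (adjusted p = 0.081, 0.11 and 0.11). Its SW1990 values of 51.1, 41.4 and 54.2 RPKM in negative and 34.4, 41.9 and 44 in positive cells overlapped. The change differed between the lines by -0.78 ± 0.21 log2 units (SE, adjusted p = 0.017) for *ENO1* and -0.76 ± 0.21 log2 units (SE, adjusted p = 0.02) for *ENO2*, the latter lost without CFPAC-1 negative replicate 3 (adjusted p = 0.054). SW1990 cells leaned further towards *ENO2*, with 21.7% ± 5.07 of the enolase RPKM in negative and 18.6% ± 4.34 in positive cells, against 6.91% ± 0.664 and 5.68% ± 0.664 in CFPAC-1.

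Lactate dehydrogenase is a tetramer of LDHA and LDHB subunits, and here the lines differed most. *LDHB*, located on chromosome 12 (GRCh37, 21788276 to 21910791, minus strand, the span of all its annotated transcripts), had 0 reads in all 6 SW1990 libraries. In CFPAC-1 it read 123, 98.9 and 98.4 RPKM in negative and 178, 194 and 165 in positive cells, and it rose there by 0.75 ± 0.13 log2 units (SE, adjusted p = 0.00093) with no overlap. Taking 3 reads per library as the most that a count of 0 allows, *LDHB* was at least 1152-fold lower in SW1990 than in CFPAC-1 in negative cells and at least 1718-fold lower in positive cells. PCR copies of a molecule are not independent, so that this limit covers counting error alone.

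*LDHA* read 260.4, 273 and 205 RPKM in negative SW1990 cells and 317, 232 and 242 in positive ones, which overlapped (0.09 log2 units, adjusted p = 0.67). In CFPAC-1 it read 247, 259 and 249.4 RPKM in negative cells and 425, 369 and 347 in positive ones and rose by 0.59 ± 0.14 log2 units (SE, adjusted p = 0.007). The negative cells of the lines overlapped in their level of *LDHA* (log2 difference -0.04 ± 0.14, SE, adjusted p = 0.79). The subunits rose side by side in CFPAC-1, and *LDHB* made up 29.7% ± 3.03 of their summed RPKM in negative cells and 32.1% ± 2.46 in positive ones.

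*SLC16A1*, which encodes the lactate transporter MCT1, read 11.4, 10.9 and 10.7 RPKM in negative CFPAC-1 cells and 19.2, 17 and 16 in positive ones and rose by 0.65 ± 0.12 log2 units (SE, adjusted p = 0.0013). Its SW1990 groups of 40.2, 41.9 and 36.7 RPKM in negative cells and 48.8, 35.6 and 39.3 in positive ones overlapped, and the lines differed in the change by -0.61 ± 0.16 log2 units (SE, adjusted p = 0.018). *SLC16A3*, which encodes the lactate exporter MCT4, was several times more abundant per length, at 195 ± 12.2 and 196 ± 10.4 RPKM in SW1990 and 247 ± 7.17 and 240.3 ± 36.6 in CFPAC-1. It was not called on sorting in either line.

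*PDK1*, the kinase that shuts off pyruvate dehydrogenase, was not called in either line, at 4.81 ± 0.399 and 6.83 ± 0.22 RPKM in SW1990 (0.50 log2 units, adjusted p = 0.09) and 6.03 ± 0.719 and 8.41 ± 2.87 in CFPAC-1 (0.42 log2 units, adjusted p = 0.13). Its SW1990 groups were separate. Without CFPAC-1 positive replicate 3, which read 5.55 RPKM beside 11.3 and 8.42, the fit called it in both lines (adjusted p = 0.013 and 0.0043).

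**Figure D3:**
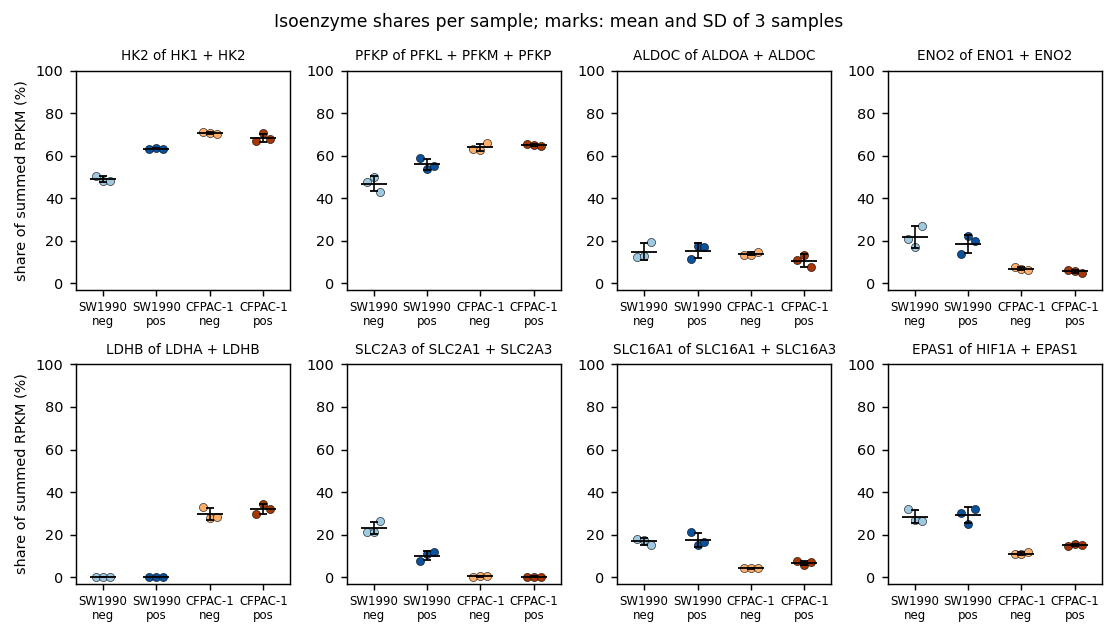
Share of 1 isoenzyme in the summed RPKM of its set (y axis, percent) in each sample, with the mean and SD of 3 samples, for SW1990 (blue) and CFPAC-1 (orange). The share of *HK2* and that of *PFKP* were higher in positive than in negative SW1990 cells and the share of *SLC2A3* lower, while *LDHB* was at 0 in SW1990 and near 30% in CFPAC-1.

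Markers of proliferation moved with the rise of glycolytic enzymes in CFPAC-1. Of 8 such markers, among them *MKI67* and *CCNA2*, 7 rose in positive CFPAC-1 cells and 1 rose in positive SW1990 cells, and none fell in either line. In CFPAC-1 their summed level was 259 to 314 RPKM in the negative samples and 405 to 614 in the positive ones, and in SW1990 it was 353 to 446 and 460 to 527. Of 10 genes of the early response to cell handling and stress, such as *FOS* and *EGR1*, 4 fell and none rose in positive CFPAC-1 cells, where their sum ran from 820 to 1164 RPKM against 886 to 2385 in negative cells, and 2 rose and 1 fell in positive SW1990 cells. Of all genes tested, 22.3% were higher and 14.2% lower in CFPAC-1, and 11.3% higher and 16.9% lower in SW1990. The part of either list in the enzyme changes was not tested.

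Of the HIF alpha subunit genes, *EPAS1* was called on sorting of CFPAC-1 and *HIF1A* in neither line. *HIF1A* read 80.1, 97.9 and 100.4 RPKM in negative SW1990 cells and 81.3, 73.1 and 68.9 in positive ones, with an overlap, and in CFPAC-1 180.1, 144 and 143 in negative cells and 176, 166 and 135 in positive ones. Neither change was called (-0.31 log2 units, adjusted p = 0.1 in SW1990 and 0.03 log2 units, adjusted p = 0.88 in CFPAC-1). HIF is controlled mainly through the stability of its protein, which RNA does not show.

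*EPAS1*, which encodes HIF-2 alpha, read 21.5, 17.6 and 19.1 RPKM in negative CFPAC-1 cells and 30, 30.4 and 24 in positive ones and rose by 0.53 ± 0.14 log2 units (SE, adjusted p = 0.011), a call lost without negative replicate 2 (adjusted p = 0.050). In SW1990 it read 38, 36.1 and 35.8 RPKM in negative cells and 35.4, 24.3 and 32.5 in positive ones, every positive sample being lower than any negative one, and the fold change of -0.27 ± 0.14 log2 units (SE, adjusted p = 0.18) was not called. The lines differed in this change by -0.80 ± 0.20 log2 units (SE, adjusted p = 0.011). *EPAS1* was 28.5% ± 3.22 and 29.1% ± 3.69 of the summed alpha subunit RPKM in negative and positive SW1990 cells, and 11.1% ± 0.586 and 15.0% ± 0.472 in CFPAC-1.

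Of the prolyl hydroxylases, *EGLN1* (PHD2) fell in positive SW1990 cells, from 15.4 ± 0.565 to 12.7 ± 0.60 RPKM (-0.28 log2 units, adjusted p = 0.031). That call was lost without any 1 of 5 SW1990 samples (adjusted p from 0.058 to 0.096), with centring on the median (0.079) and with the replicate block (0.060). In CFPAC-1 *EGLN1* stood at 10.2 ± 0.534 and 11.7 ± 0.758 RPKM (0.19 log2 units, adjusted p = 0.11). The difference between the lines, -0.47 log2 units, adjusted p = 0.015, was lost with centring on the median (0.089) and with quantile normalization (0.063). *EGLN3* (PHD3), itself a HIF target, was not called on sorting, but the group means of 9.58 and 13.1 RPKM in CFPAC-1 were above the 3.38 and 3.62 RPKM of SW1990.

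Of the 8 hypoxia targets, none rose and 1 fell (12.5%) in SW1990, where 11.3% of all genes were higher and 16.9% lower. In CFPAC-1 there was 1 that rose and 1 that fell, each 12.5% of the list beside 22.3% and 14.2% of all genes. Nothing particular to the targets is read from these counts. *NDRG1*, a stress-responsive gene that HIF induces, read 19, 20.7 and 24.5 RPKM in negative SW1990 cells and 5.82, 12.4 and 10.6 in positive ones. Every positive sample was below every negative one, and its fall of -1.21 ± 0.26 log2 units (SE, adjusted p = 0.0037) was the largest of any member on sorting. In CFPAC-1 it read 35.3, 31.7 and 30.3 RPKM in negative cells and 34.2, 44.1 and 24.8 in positive ones, which overlapped (0.05 log2 units, adjusted p = 0.91), and the lines differed by -1.26 ± 0.36 log2 units (SE, adjusted p = 0.023). That difference was lost without SW1990 negative replicate 3 or CFPAC-1 negative replicate 2 or 3 (adjusted p from 0.050 to 0.055).

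*ADM*, which encodes the vasodilator adrenomedullin, read 5.14, 7.23 and 6.02 RPKM in negative CFPAC-1 cells and 8.47, 10.7 and 9.35 in positive ones and rose by 0.63 ± 0.16 log2 units (SE, adjusted p = 0.011). In SW1990 the values of 11.7, 17.3 and 14.3 RPKM in negative cells and 11.6, 10.6 and 9.47 in positive ones ran the other way without overlap, but the change of -0.44 ± 0.16 log2 units (SE, adjusted p = 0.067) was not called. The difference between the lines was -1.07 ± 0.23 log2 units (SE, adjusted p = 0.0053). *P4HA1*, a collagen prolyl hydroxylase, was the member that fell in CFPAC-1, from 63.9, 62.3 and 60.8 RPKM to 38.6, 59.6 and 29 (-0.62 log2 units, adjusted p = 0.024). Its positive samples spread widely, and the call was lost with any 1 of 5 samples of the line left out and in a fit of the compared groups alone (adjusted p = 0.12).

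*VEGFA*, the main vessel growth factor, read 32.8, 26.3 and 41.2 RPKM in negative SW1990 cells and 16.9, 35.7 and 35 in positive ones. In CFPAC-1 it read 108, 104 and 99.3 RPKM in negative cells and 89.3, 83.4 and 117 in positive ones. The groups overlapped in each line, and neither change was called (-0.25 log2 units, adjusted p = 0.52 and -0.12 log2 units, adjusted p = 0.75).

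*CA9*, the carbonic anhydrase that is among the most specific HIF targets, was low everywhere. It had 2 reads in SW1990 negative replicate 1 and 0 in the other 5 SW1990 libraries. CFPAC-1 samples read 1.42, 0.971 and 1.13 RPKM in negative and 2.29, 2.06 and 1.48 in positive cells, which did not overlap (0.68 log2 units, adjusted p = 0.069). Against 3 reads per library, *CA9* was at least 12.3-fold lower in SW1990 in negative and at least 18.1-fold lower in positive cells.

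*BNIP3*, a mitophagy receptor that HIF-1 induces, was nearly absent from SW1990, with 2 to 10 reads in a library. It read 0.317, 0.168 and 0.0737 RPKM in negative SW1990 cells and 0.235, 0.192 and 0.11 in positive ones, and in CFPAC-1 42.8, 32 and 34.6 in negative cells and 87.3, 73.8 and 30.9 in positive ones. The CFPAC-1 mean was 196 times that of SW1990 in negative cells and 357 times in positive cells. These ratios rest on few SW1990 reads, and with 1 sample left out they ran from 150.4, without SW1990 negative replicate 3, to 302, without SW1990 negative replicate 1, in negative cells and from 292 to 449 in positive cells. The annotation names 44 pseudogenes after *BNIP3*, so that its few SW1990 reads are uncertain. Its relative *BNIP3L* was present in both lines, at 36.7 to 45.8 RPKM in the group means, and *ANKRD37* was low in both, at 2.00 to 2.79 RPKM.

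CFPAC-1 positive replicate 3, the library with the fewest reads, was the lowest of its group in 5 of the 8 hypoxia targets. This was not particular to that library. SW1990 positive replicate 1, with 19399593 reads, was the lowest in 5 of 7 targets. SW1990 negative replicate 1 and CFPAC-1 negative replicate 3 were each the lowest in 4 of 8. For *BNIP3*, CFPAC-1 positive replicate 3 read 30.9 RPKM beside 87.3 and 73.8, and for *BNIP3L* 29.2 beside 49.97 and 46.8. Without it, *BNIP3* (log2 fold change 1.15, adjusted p = 0.019), *BNIP3L* (0.40, 0.0072), *CA9* (0.85, 0.034), *EGLN3* (0.62, 0.0096) and *PDK1* (0.69, 0.0043) were called higher in positive CFPAC-1 cells and *P4HA1* was no longer called, which gave 22 members higher and none lower. Over all 16236 genes tested, 3772 were higher and 2393 lower without this library, beside 3622 and 2307 with it. The remaining pair of samples is then assumed to vary like the other groups. Whether the depth of this library had a part was not tested.

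**Figure D4:**
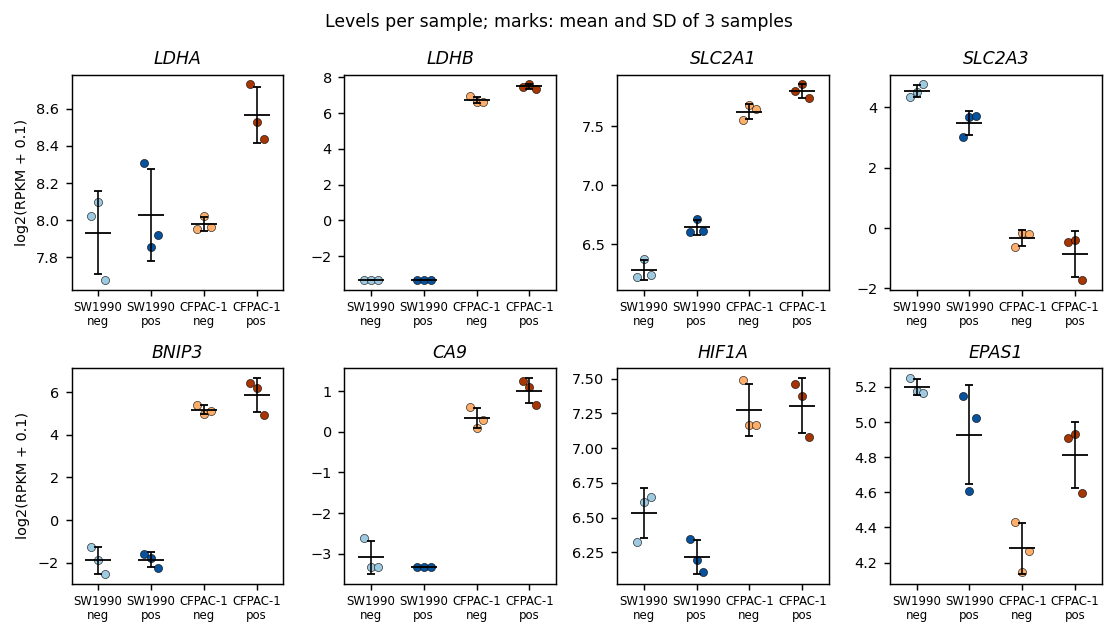
Level in each sample (y axis, log2 of RPKM + 0.1, ranges differ between panels) of 8 members that differed between SW1990 (blue) and CFPAC-1 (orange) or define the hypoxia response, with the mean and SD of 3 samples on this scale. *LDHB*, *BNIP3* and *CA9* lie at or near the floor in SW1990, *SLC2A3* is the reverse, and *LDHA* overlaps in the negative cells of both lines (log2 difference -0.04).

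Compared at the same GCTM-5 state, the lines differed in most members, as they did in most genes of any kind. Of the 16236 genes tested, 6610 were higher and 4571 lower in negative SW1990 cells, and 5349 and 4764 in positive ones. Of the members, 82.9% were called in negative cells and 65.7% in positive cells. In negative cells 15 members were higher in SW1990 (42.9%, background 40.7%) and 14 lower (40%, background 28.2%). In positive cells 7 were higher (20%, background 32.9%) and 16 lower (45.7%, background 29.3%). Both lower counts hold *LDHB* and *CA9*, which passed the filter only through CFPAC-1, so that neither could have been called higher in SW1990. Nothing particular to the members is read from these counts. Members higher in negative SW1990 cells included *SLC2A3* (4.87), *SLC16A1* (1.84), *GPI* (1.64) and *TPI1* (1.39), as log2 fold changes over CFPAC-1.

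The 14 members lower in negative SW1990 cells included hypoxia targets, a prolyl hydroxylase and glycolytic genes. Besides *LDHB*, *BNIP3* and *CA9*, *VEGFA* (-1.65), *EGLN3* (-1.48), *PFKFB3* (-1.48), *SLC2A1* (-1.34), *P4HA1* (-1.29) and *PGK1* (-1.20) were lower by more than 1 log2 unit. *HK2* (-0.75), *ENO1* (-0.65), *PFKP* (-0.50) and *SLC16A3* (-0.34) differed less. *HIF1A* itself was lower there as well (-0.74 log2 units, adjusted p = 0.0003), while *EPAS1* was higher (0.92 log2 units, adjusted p = 8.8e-05). In positive cells *EPAS1* (0.12 log2 units, adjusted p = 0.49), *ADM* (0.15 log2 units, adjusted p = 0.44), *PFKFB4* (0.05 log2 units, adjusted p = 0.81) and *HK1* (-0.02 log2 units, adjusted p = 0.8) were not called between the lines. All 4 had risen in CFPAC-1, and in SW1990 *HK1* had fallen, while *ADM* (-0.44) and *EPAS1* (-0.27) had lower, separate and uncalled values in positive cells.

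Other genes of the same pathways, from lists that do not hold the members, are set beside the share of all genes called, in CFPAC-1 22.3% higher and 14.2% lower and in SW1990 11.3% higher and 16.9% lower. Of 24 further glycolytic enzymes and transporters tested, 8 rose (33.3%) and 1 fell (4.17%) in CFPAC-1, and 2 rose (8.33%) and 7 fell (29.2%) in SW1990. *PKM*, the pyruvate kinase gene listed under its older symbol, rose in CFPAC-1 (log2 fold change 0.68, adjusted p = 0.0047) and was at -0.05 (adjusted p = 0.84) in SW1990, a difference between the lines of -0.73 (adjusted p = 0.024). *FBP1*, the gluconeogenic enzyme that opposes phosphofructokinase, rose in CFPAC-1 from 1.08 ± 0.118 to 4.23 ± 1.26 RPKM (1.84, adjusted p = 0.00016). *PFKFB2*, another bifunctional enzyme, rose in SW1990 from 9.04 ± 0.778 to 13.1 ± 0.85 RPKM (0.53, adjusted p = 0.0047).

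Among 36 further hypoxia targets, 2 rose (5.56%) and 14 fell (38.9%, all genes 16.9%) in SW1990. In CFPAC-1, 7 rose (19.4%) and 6 fell (16.7%), near the shares of all genes. *CA12*, a membrane carbonic anhydrase, fell in both lines, in SW1990 from 1.45 ± 0.175 to 0.0453 ± 0.0282 RPKM (-3.43, adjusted p = 5e-07) and in CFPAC-1 from 5.27 ± 1.32 to 2.21 ± 0.271 RPKM (-1.20, adjusted p = 0.0016). *LOX*, the collagen crosslinking enzyme, fell in SW1990 from 23.8 ± 4.13 to 2.44 ± 0.322 RPKM (-3.23, adjusted p = 0.00018). *TMEM45A* fell there from 2.03 ± 0.607 to 0.299 ± 0.155 RPKM (-2.44, adjusted p = 0.00029). The oxidase gene *ERO1L* (0.78, adjusted p = 0.0001) and *FAM162A* (0.48, adjusted p = 0.036) rose there. In CFPAC-1 the transferrin receptor gene *TFRC* (1.23, adjusted p = 4.9e-05) and the lipid droplet gene *HILPDA* (1.23, adjusted p = 0.00054) rose. *NRN1* fell there from 0.507 ± 0.236 to 0.124 ± 0.063 RPKM (-1.38, adjusted p = 0.027). Some of these falls rest on few reads, with as few as 2 in a library for *CA12* in SW1990, 5 for *TMEM45A* and 4 for *NRN1*.

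The remaining lists were shorter, and nothing particular to them is read from their counts. Of 12 further subunits and regulators of the HIF pathway, 3 fell (25%) and none rose in SW1990, with *ARNT*, the stable HIF partner, at -0.52 (adjusted p = 0.0025), and 3 rose (25%) and 1 (8.33%), *ARNT* (-0.29, adjusted p = 0.044), fell in CFPAC-1. Of 13 genes of pyruvate entry into mitochondria, 1 rose (7.69%) and 2 fell (15.4%) in SW1990 and 3 rose (23.1%) and 2 fell (15.4%) in CFPAC-1, where *PDK4*, a kinase of the same family as *PDK1*, went from 10.2 ± 1.49 to 4.53 ± 0.828 RPKM (-1.16, adjusted p = 0.015).

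Markers of duct epithelium and of other cell types moved in SW1990 beside the fall of hypoxia targets such as *LOX*. Of the 8 duct epithelial markers 6 rose in positive SW1990 cells, and their summed level went from between 1708 and 2024 RPKM to between 4858 and 5220. All 3 fibroblast markers that passed the filter, of 9 listed, fell, and their sum went from between 12.8 and 22.7 RPKM to between 3.90 and 4.88. These were *LUM*, at 13.2 RPKM in negative and 2.43 in positive SW1990 cells, *COL1A1* (3.57 and 1.93) and *PDGFRB* (1.76 and 0.0381). Of the fibroblast markers that did not pass, *DCN* and *COL3A1* were at or near 0 in every group. The 5 endothelial markers summed to between 14.9 and 18.9 RPKM in negative and 1.47 to 2.05 in positive SW1990 cells, nearly all of it *CDH5*, which was also the 1 of 3 tested that fell. Of the 6 leukocyte markers, *CD68* and *CD14* passed the filter. Both fell in SW1990 and *CD14* fell in CFPAC-1, with *PTPRC* at or near 0. In CFPAC-1, 3 duct epithelial markers rose and 1 fell, and no fibroblast or endothelial marker was called. The shares of all genes called were 11.3% higher and 16.9% lower in SW1990, and 22.3% and 14.2% in CFPAC-1. The part of these marker shifts in the member genes was not tested.

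Matches to the HIF motif were also counted by sorting call. A match was present in 11 of the 16 members with a promoter entry that rose in positive CFPAC-1 cells (68.8%) and in 11 of the other 14 (78.6%). The former include *HK1* and *PGAM1* and the latter *PDK1*, whose windows were poor in CpG and may not be the starts used here. Both *LDHA*, with 5 matches before its start, and *LDHB*, with none there, rose in CFPAC-1, and *BNIP3*, with 6, was not called.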

How the data were processed

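Strand-specific or TruSeq libraries of polyadenylated RNA (the labels and the paper name different kits, and different media) from 12 sorted samples were sequenced on an Illumina instrument. The deposited RPKM values were made by the authors in QuasR from reads aligned to GRCh37 (hg19), by dividing counts by gene length and library size. The annotation, the use of strand and the handling of reads with several matches are not given in the sources used here. The authors' TCC test was not used.

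Samples were grouped by line and GCTM-5 label. Log2(RPKM + 0.1) of the 16236 genes with a mean of at least 0.1 RPKM was fitted as 4 group means with limma 3.58.1 in R 4.3.3 (eBayes with an intensity trend, 2-sided, Benjamini-Hochberg adjusted over all genes). Whole reads were recovered from the RPKM steps to within 0.01 of a read for all 19654 genes above 0, and served for limits of detection and voom. The recovery of reads and the fit were tested on simulated data. Python 3.11.15, pandas 2.3.3, numpy 2.4.6 and matplotlib 3.10.9 were used.

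The members, pathway lists and marker lists were chosen with earlier results of these data known. Values in every sample are given for the 12 members with the largest called change and for *HIF1A*, *EPAS1*, *VEGFA*, *CA9*, *LDHA* and *GAPDH*, and, added after values were seen, for *HK1*, *HK2*, *BNIP3* and *P4HA1*. From the other lists the 3 genes with the largest called rise and fall in each line are named. *PKM* and *ARNT* were added after their values were seen. The result of 1 further list is not reported here. Gene positions are from GENCODE 44 on GRCh37, and promoters are from RefSeq on GRCh38.p14. A GENCODE gene span covers all annotated transcripts, so that its start need not be that of the promoter window. Shares of isoenzymes are descriptions without a test. Alternatives were pseudocounts of 1 and 0.01, filters, scaling, the fit and its threshold, a replicate block, voom, and each sample left out in turn.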

Additional observations from a re-analysis of the deposited data

Results flagged for a closer look

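The change from GCTM-5 negative to positive cells differed between SW1990 and CFPAC-1 for 16 members by a limma test of the difference itself. These were 45.7% of the members, where 26.9% of all genes tested were called. Each value is the log2 fold change in SW1990 minus that in CFPAC-1. Among glycolytic enzymes and their regulators it was -0.98 for *PFKFB4*, -0.91 for *PGAM1*, -0.85 for *GPI*, -0.78 for *ENO1*, -0.76 for *ENO2*, -0.75 for *LDHB*, -0.72 for *TPI1*, -0.59 for *HK1*, -0.56 for *PFKM* and -0.53 for *PFKFB3*, and the one value above 0 was 0.40 for *HK2*. For the lactate transporter gene *SLC16A1* it was -0.61. Among the hypoxia genes it was -1.26 for *NDRG1*, -1.07 for *ADM*, -0.80 for *EPAS1* and -0.47 for *EGLN1*. *LDHB* had no reads in SW1990, so that its value is the CFPAC-1 change alone and not a contrast of expressed levels. With each sample centred on its median over all genes, *EGLN1*, *ENO1*, *PFKFB3*, *PFKM*, *PGAM1* and *SLC16A1* were no longer called. Of all 16236 genes, 1987 were then higher and 1988 lower.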

How the results depend on the processing

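No direction of a called member was reversed under any alternative. Of the members called, 5 of 10 in SW1990, 12 of 18 in CFPAC-1, 6 of 16 in the difference between lines, 25 of 29 between the lines in negative cells and 19 of 23 in positive cells were called under every alternative fit. At over 2-fold with an unadjusted p under 0.01, the counts were 2 in SW1990, 0 in CFPAC-1, 2 in the difference, 16 in negative and 13 in positive cells, against 10, 18, 16, 29 and 23. At an adjusted p under 0.01 they were 5, 11 and 6 in SW1990, CFPAC-1 and the difference. The share of all genes was not counted at these 2 thresholds. The count of 0 in CFPAC-1 stands beside 18 called by limma at an adjusted p under 0.05 and 22 by voom on recovered reads. By voom, 3724 of all 16236 genes were higher and 2494 lower in CFPAC-1, beside 3622 and 2307 in the main fit. Centring on the median left 10 in the difference, where 1987 of all genes were higher and 1988 lower. With 1 sample left out, SW1990 ranged from 6, without SW1990 negative replicate 3, to 11, CFPAC-1 from 14 to 22 and the difference from 11 to 19. The counts over all genes moved as well. In CFPAC-1, 2777 genes were higher and 1588 lower without CFPAC-1 negative replicate 3. Without CFPAC-1 positive replicate 3 they were 3772 and 2393. In the difference, the same 2 fits gave 1149 higher and 2204 lower, and 1763 higher and 3329 lower. With voom the difference of *LDHB* was not called (adjusted p = 0.68).

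With replicate numbers as a replicate block, the counts were 9 in SW1990, 18 in CFPAC-1 and 14 in the difference. Over all genes, 1799 were then higher and 2587 lower in SW1990, and 3534 and 2195 in CFPAC-1. In the difference they were 1434 and 2696. Same-numbered samples had correlations of 0.18, 0.02 and 0.12 in SW1990 and -0.02, 0.00 and -0.06 in CFPAC-1, so that the numbers were not taken as pairs. The lines share no sorts, and no block was fitted between them. Depth limits *CA9* in SW1990, and the cause of the changes in call was not tested.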
